A study of Homo sapiens with 12 samples.

Results

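The genes described here encode the proteins at the core of the splicing small nuclear ribonucleoproteins (snRNPs), the RNA-protein particles that recognise introns and assemble into the spliceosome. They were chosen by symbol, with earlier results of these data known. Every protein-coding gene of the count table named LSM plus a number, with an optional A or B, was taken. Genes named SNRP plus letters or digits, or SF3A or SF3B plus a number, were taken too. The table held 60664 genes, and 91 of their symbols matched these patterns. Of the matches, 57 were processed pseudogenes and were left out, which gave 34 members. All 34 passed the filter on low counts, which left 17960 genes of all kinds for testing. The count table came from SK-N-SH, an established human neuroblastoma line that holds neuron-like and flat, substrate-adherent cells. The cells were grown on substrates with a stiffness of 1, 8 or 30 kPa (kilopascals, a unit of elastic modulus in which a low value is a soft surface), with 4 RNA-seq libraries at each stiffness and no other treatment named. All groups share the 1 cell line. Neither the substrate material nor whether the 4 libraries came from separate cultures is given in the sources used here. The p-values thus set group differences against the variation among these libraries only, and that variation may be technical. The symbol patterns reach a little beyond the splicing particles: LSM1 belongs to the cytoplasmic ring that promotes mRNA decay, LSM10 and LSM11 to the U7 particle of histone mRNA processing, and LSM12, LSM14A and LSM14B carry an LSm domain without being known as snRNP components. They also leave out U5 proteins and SNRNP70, whose symbols follow other patterns.

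As background, each spliceosomal snRNP is built on a small nuclear RNA. The U1, U2, U4 and U5 RNAs carry a ring of Sm proteins (SmB, SmD1, SmD2, SmD3, SmE, SmF and SmG) that is loaded in the cytoplasm by the SMN complex, while U6 RNA carries the related ring of LSM2 to LSM8. When LSM1 takes the place of LSM8, the ring is cytoplasmic and binds the ends of mRNAs that are being degraded. Other members mark single particles: SNRPA and SNRPC are U1 proteins, SNRPA1 and SNRPB2 are U2 proteins, and the SF3a and SF3b complexes belong to U2 and hold the branch site of the intron. SNRPN encodes SmN, a form of SmB that neurons use and whose gene is imprinted.

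Between 1 and 8 kPa most genes of the Sm and LSm rings rose, and most SF3a and SF3b genes did not pass the test. Of the 34 members, 17 were higher at 8 kPa, 1 (SNRPN) was lower and 16 did not pass, against 13.8% of all tested genes called in either direction, 8.17% higher and 5.6% lower (edgeR's quasi-likelihood test, Benjamini-Hochberg adjusted p under 0.05). The median log2 fold change of the members was 0.25, against -0.01 over all tested genes, and 29 of 34 were positive. Fold changes of the 17 were modest, from 0.22 (SNRPA) to 0.65 (LSM3) on the log2 scale. In each of the 17, every 8 kPa library lay above every 1 kPa library, and no other member showed this, against 9.41% of tested genes. Below all 1 kPa libraries at 8 kPa lay 2 members, SNRPN and SF3B1, against 7.36%. In bulk RNA, fewer cells that express a gene and less of its RNA per cell cannot be told apart.

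Depth runs with the groups. The 1 kPa libraries held 14317437 to 15896607 counts, those at 8 kPa 14951116 to 25349320 and those at 30 kPa 23896536 to 27820973. All 1 kPa libraries and 8 kPa replicate 1 were thus shallow and the other 7 deep. When this depth class was added to the fit, 0 of the 34 members and 0 of all tested genes passed at 8 against 1 kPa. The members' median was then 0.28. In that fit the comparison rests on 8 kPa replicate 1, the only shallow library at 8 kPa. A count of calls from it cannot tell depth and stiffness apart. A single library, 1 kPa replicate 2, also stood low. It was the lowest of all 12 in 25 of the 34 members and in 16 of the 17 higher ones. The share of all tested genes with this library lowest was not counted. Without 1 kPa replicate 2, 13 members were called at 8 against 1 kPa, all higher, against 6.01% of the genes tested in that fit. Without 8 kPa replicate 3 the count was 10, all higher, against 2.93%. The 10 called whichever single library was left out were LSM1, LSM3, LSM4, LSM5, LSM10, SF3B5, SNRPB, SNRPC, SNRPD1 and SNRPG.

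**Figure D1:**
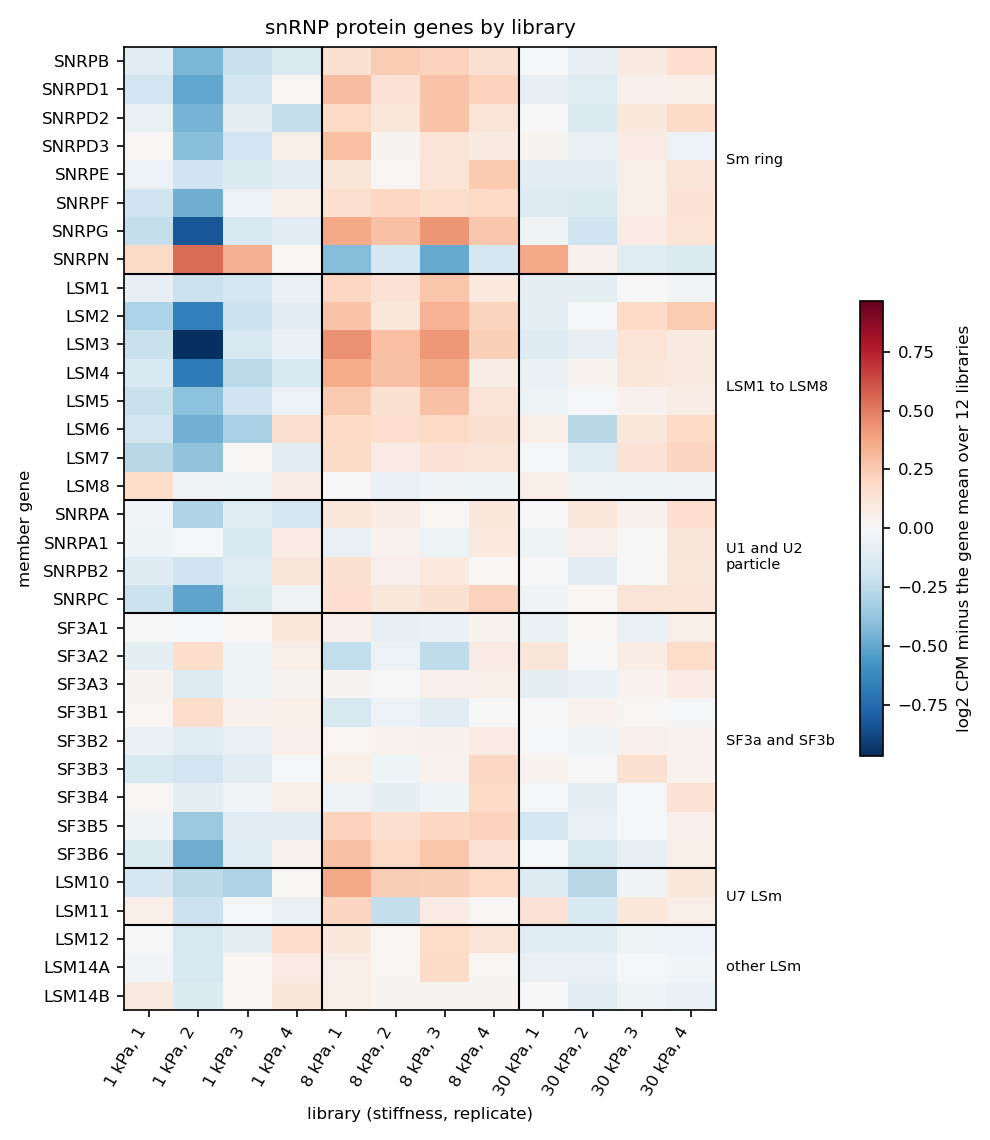
Each cell is 1 member (rows, ordered by role) in 1 of the 12 libraries (columns, by stiffness and replicate); colour is log2 CPM minus that gene's mean over the 12 libraries, red above and blue below. The Sm ring and LSM1 to LSM7 are mostly red in the 8 kPa columns and blue in the 1 kPa columns, with 1 kPa replicate 2 lowest in 25 of 34 rows, and the SNRPN row runs the other way.

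The promoters of the members are shown here because a short motif, ETS, stood in a larger share of them than of other genes. A tie between any motif and the fold changes was not tested. Windows of 300 bases, 250 before to 50 after the listed start, were taken from RefSeq (GRCh38.p14) and matched 29 of the 34 members, with 40 windows, since some members have several starts. The ETS motif CCGGAAGT, searched on both strands, stood in the windows of 10 of the 29 members (34.5%), against 4.95% of all genes with a window and 9.14% of tested genes with one. Of these 10, 4 were among the 15 matched members that rose at 8 against 1 kPa (LSM5, SF3B6, SNRPB and SNRPE), and the others were 5 SF3 subunits and SNRPA1. The matches with 10 bases on either side are printed 5′ to 3′ on the strand of the match with the motif in capitals, first for members that rose and then for members that did not pass; the match of SNRPE lay within 10 bases of its window's edge and is not printed.
LSM5: catggctacgCCGGAAGTggcctgcctt
SF3B6: ggtacagagcCCGGAAGTgtcttggact
SNRPB: gtgagctggaCCGGAAGTaggtttctac
SF3A1: ggggacggtcCCGGAAGTgcgccagtcg
SF3A2: ctcatttgccCCGGAAGTgctttctttg
SF3A3: tccgcgagtgCCGGAAGTgccccgggac
SF3B2: tacggcgccaCCGGAAGTtccggcaagt
SF3B4: cgtcttcgccCCGGAAGTggaagtcgtg
SNRPA1: ggcgttcttgCCGGAAGTcgtggcgcgc
These stretches lie at chr7:32490363-32490390, chr2:24076468-24076495, chr20:2470813-2470840, chr22:30356926-30356953, chr19:2236805-2236832, chr1:37990074-37990101, chr11:66052301-66052328, chr1:149927812-149927839 and chr15:101295345-101295372, in the order printed. Of the 9, 6 run on the strand of the gene, and those of LSM5, SF3A3 and SNRPA1 on the other. Counted from the start base as 0, and along the strand of the gene, the match began between -159 (SF3B6) and 0 (LSM5).

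The CCAAT motif stood in 11 of the 29 members (37.9%), close to the 42.9% of tested genes. Of the 11, 7 rose, beside 15 of all 29 matched members. The motif is shown in 2 of the 7, LSM10 of the U7 ring and SF3B5 of the SF3b complex. Both are printed as the 150 bases before the start on the strand of the gene, with motif letters in capitals.
LSM10: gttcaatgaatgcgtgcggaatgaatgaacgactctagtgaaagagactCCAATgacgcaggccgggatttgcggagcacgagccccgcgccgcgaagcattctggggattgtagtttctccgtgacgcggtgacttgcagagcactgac
SF3B5: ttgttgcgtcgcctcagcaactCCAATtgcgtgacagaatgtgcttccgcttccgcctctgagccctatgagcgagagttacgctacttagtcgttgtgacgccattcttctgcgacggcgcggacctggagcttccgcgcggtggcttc
These lie at chr1:36397909-36398058 and chr6:144095574-144095723, both on the minus strand, and the CCAAT match begins at -101 and -128. The remaining motifs were at or near the share of tested genes or rested on few members: SP1 (GGGCGG) in 20 members (69.0% against 74.2%), YY1 (AAGATGGC) in 5 (17.2% against 6.02%), NRF1 (GCGCATGC) in 3 (10.3% against 6.15%) and the E box CACGTG in 1 (3.45% against 11.9%). A match is a description of the letters and not a site of binding.

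In the Sm ring, 6 of 8 genes rose at 8 against 1 kPa, SNRPN fell, and the median was 0.35. The largest rise was in SNRPG, which encodes SmG (chromosome 2, 70281362 to 70293771, minus strand, GRCh38). CPM values, which adjust counts for library size with TMM factors, follow the order of replicates 1 to 4. SNRPG stood at 42.0, 27.7, 44.2 and 45.5 CPM in the 1 kPa libraries, 63.4, 60.003, 66.2 and 58.8 in those at 8 kPa and 48.2, 43.0, 52.0 and 53.9 in those at 30 kPa. The 8 kPa libraries lay above all others, and 1 kPa replicate 2 lay far below the other 1 kPa libraries. Its log2 fold change at 8 against 1 kPa was 0.64 ± 0.121 (SE, 4 libraries a group; adjusted p = 0.00940, edgeR). SNRPG has 20 processed pseudogenes, of which 6 had counts; together they held 9.40% of the counts of gene and pseudogenes, so the split between them is uncertain, and their sum was 4.14 ± 0.469 CPM (SD, n = 4) on the softest substrate, 6.50 ± 0.721 on 8 kPa and 5.05 ± 0.792 on 30 kPa.

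SNRPD1, the gene of SmD1, stood at 57.4, 46.0, 57.7 and 65.8 CPM in the 1 kPa libraries, 80.2, 71.8, 78.9 and 75.8 in those at 8 kPa and 61.7, 60.04, 67.3 and 68.0 in those at 30 kPa. All 8 kPa libraries were above all 1 and 30 kPa libraries, and the log2 fold change at 8 against 1 kPa was 0.43 ± 0.0857 (adjusted p = 0.00999, edgeR). SNRPD2, SNRPF and SNRPE, the genes of SmD2, SmF and SmE, rose by 0.38, 0.33 and 0.25 with adjusted p of 0.0145, 0.0376 and 0.0234 by the same test. Of these, SNRPF lost its call when any of 7 single libraries was left out, SNRPE with any of 4, and SNRPD2 without 8 kPa replicate 3. SNRPD3, the gene of SmD3, had a fold change of 0.26 and did not pass (adjusted p = 0.0705, edgeR); its exons overlap those of GUCD1 on the opposite strand by 321 bases, and GUCD1 rose by 0.26 (adjusted p = 0.0165, edgeR), so without a stated strand setting the reads of this pair cannot be told apart.

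The genes of SmB and of its neuronal form SmN moved in opposite directions. SNRPB (chromosome 20, 2461634 to 2470853, minus strand) stood at 37.8, 30.003, 35.05 and 36.9 CPM in the 1 kPa libraries, 45.0, 48.4, 47.6 and 45.1 in those at 8 kPa and 40.2, 38.7, 43.2 and 45.5 in those at 30 kPa. All 8 kPa and all 30 kPa libraries were above all 1 kPa libraries, and the log2 fold change at 8 against 1 kPa was 0.41 ± 0.0737 (adjusted p = 0.00792, edgeR). SNRPN (chromosome 15, 24823637 to 24978723, plus strand) stood at 3.49, 4.45, 3.90 and 3.10 CPM in the 1 kPa libraries, 2.30, 2.74, 2.19 and 2.74 in those at 8 kPa and 3.96, 3.16, 2.83 and 2.78 in those at 30 kPa. The 8 kPa libraries were the 4 lowest of all 12, and the log2 fold change was -0.58 ± 0.163 (adjusted p = 0.0331, edgeR). The fall in SNRPN rests on few counts, lost its call when any of 5 single libraries was left out and in a fit of the 1 and 8 kPa libraries alone, and its exons overlap those of SNURF and SNHG14 on the same strand. SNHG14, the long transcript of this imprinted locus, was at 144 ± 4.65, 130 ± 8.25 and 140 ± 6.82 CPM at 1, 8 and 30 kPa (SD, n = 4) with a fold change of -0.14 (adjusted p = 0.101, edgeR), and SNURF, the upstream reading frame of the SNRPN transcript, was at 1.21, 1.23 and 1.22 CPM. Within a library, SNRPB counts were on average 9.40 times those of SNRPN at 1 kPa, 18.8 times at 8 kPa and 13.3 times at 30 kPa (geometric means of CPM ratios, not corrected for length), and every 8 kPa library had a higher ratio than any 1 or 30 kPa library. This ratio was looked at after its values were seen and is given without a test.

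**Figure D2:**
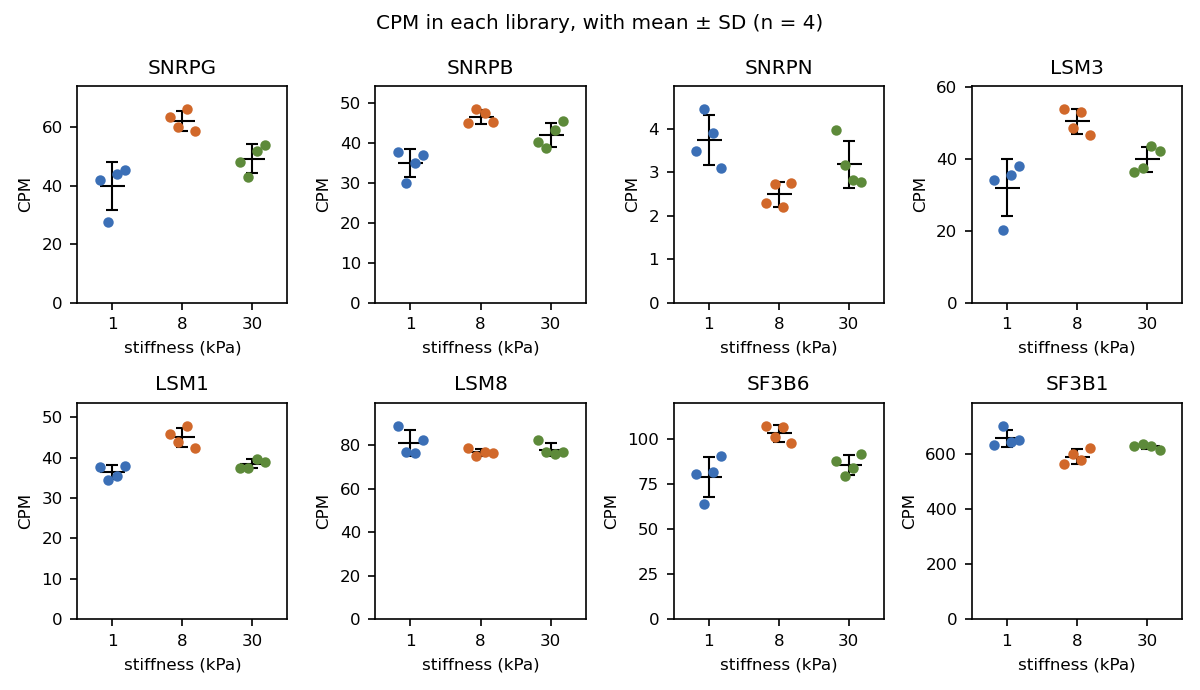
CPM (vertical axis, from 0) of 8 members in each library against stiffness (1, 8 and 30 kPa); points are the 4 libraries of a group, the horizontal bar is their mean and the error bar their SD. SNRPG, SNRPB, LSM3, LSM1 and SF3B6 are highest at 8 kPa without overlap with 1 kPa, SNRPN is lowest at 8 kPa, and the groups of LSM8 overlap.

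Of the ring genes LSM1 to LSM8, 6 of 8 rose at 8 against 1 kPa and none fell, with a median of 0.38. LSM3 had the highest fold change of all members. It stood at 34.1, 20.3, 35.6 and 38.0 CPM in the 1 kPa libraries, 53.8, 48.6, 53.0 and 46.6 in those at 8 kPa and 36.4, 37.6, 43.6 and 42.1 in those at 30 kPa. The 8 kPa libraries lay above the other 8, and 1 kPa replicate 2 was at 20.3 against 34.1 to 38.0 in the other 1 kPa libraries. The log2 fold change was 0.65 ± 0.140 (adjusted p = 0.0125, edgeR). LSM3 (chromosome 3, 14178358 to 14201119, plus strand) shares 318 exon bases with XPC on the opposite strand, whose own fold change was -0.14 (adjusted p = 0.179, edgeR).

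LSM4 and LSM2 followed. LSM4 stood at 45.3, 31.2, 41.9 and 45.4 CPM in the 1 kPa libraries, 64.4, 61.0, 64.6 and 52.7 in those at 8 kPa and 48.1, 51.4, 54.3 and 53.2 in those at 30 kPa. Every 1 kPa library was below every library of the stiffer groups, and the log2 fold change at 8 against 1 kPa was 0.56 ± 0.102 (adjusted p = 0.00792, edgeR). LSM2, at a lower level, stood at 9.43, 7.32, 10.0 and 10.8 CPM in the 1 kPa libraries, 13.98, 12.5, 14.6 and 13.4 in those at 8 kPa and 10.9, 11.4, 13.2 and 13.7 in those at 30 kPa. Here too all 1 kPa libraries were the lowest, with a log2 change of 0.53 ± 0.115 (adjusted p = 0.0125, edgeR), a call lost without 8 kPa replicate 3. LSM5 had the smallest p of the members. Its values were 50.5, 44.5, 51.3 and 56.4 CPM in the 1 kPa libraries, 69.9, 65.0, 71.3 and 63.9 in those at 8 kPa and 56.7, 58.1, 60.4 and 61.6 in those at 30 kPa. The groups did not overlap and were ordered 1, 30, 8 kPa from low to high; the log2 fold change at 8 against 1 kPa was 0.41 ± 0.0666 (adjusted p = 0.00656, edgeR). LSM7 rose by 0.30 (adjusted p = 0.0338, edgeR) and lost its call when any of 4 single libraries was left out, and LSM6, with a fold change of 0.35, did not pass (adjusted p = 0.0708).

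LSM1 and LSM8 take the same place in the ring, LSM1 in the cytoplasmic and LSM8 in the nuclear form. LSM1 stood at 37.7, 34.4, 35.4 and 38.0 CPM in the 1 kPa libraries, 45.7, 43.8, 47.9 and 42.4 in those at 8 kPa and 37.5, 37.5, 39.7 and 39.0 in those at 30 kPa. All 8 kPa libraries were above all others, and the log2 fold change at 8 against 1 kPa was 0.31 ± 0.0555 (adjusted p = 0.00827, edgeR). LSM8 stood at 88.9, 76.8, 76.2 and 82.4 CPM in the 1 kPa libraries, 78.5, 75.1, 76.7 and 76.3 in those at 8 kPa and 82.2, 76.8, 76.1 and 76.6 in those at 30 kPa. Its groups overlapped, and its log2 fold change was -0.08 ± 0.0538 (adjusted p = 0.321, edgeR). The LSM1 to LSM8 ratio within a library averaged 0.449 at 1 kPa, 0.586 at 8 kPa and 0.493 at 30 kPa (geometric means of CPM ratios), and the 8 kPa libraries lay above all others; the pair was chosen after its values were seen and carries no test. LSM1 shares 198 exon bases with BAG4 on the opposite strand, and BAG4 had a fold change of 0.15 (adjusted p = 0.347, edgeR).

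Among the proteins of single particles, 2 of 4 rose at 8 against 1 kPa, both of U1, and the median was 0.19. SNRPC, which encodes the U1 protein that steadies pairing with the 5′ splice site, stood at 37.5, 30.5, 39.4 and 42.3 CPM in the 1 kPa libraries, 48.6, 46.8, 48.0 and 50.7 in those at 8 kPa and 42.4, 43.8, 47.4 and 47.3 in those at 30 kPa. The 1 kPa libraries were below all others, and the log2 fold change at 8 against 1 kPa was 0.37 ± 0.0813 (adjusted p = 0.0132, edgeR). SNRPC has 18 processed pseudogenes, which held 1.54% of the summed counts. SNRPA, the U1 protein that binds a loop of U1 RNA, rose by 0.22 (adjusted p = 0.0369, edgeR), a call lost when any of 9 single libraries was left out. The U2 genes did not pass: SNRPB2 had a fold change of 0.15 (adjusted p = 0.138, edgeR) and SNRPA1 of 0.04 (adjusted p = 0.738). SNRNP70, a U1 gene outside the symbol patterns, had a fold change of -0.14 and did not pass (adjusted p = 0.174, edgeR). The difference between U1 and U2 genes was not tested.

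Of the 9 SF3a and SF3b genes, 2 rose, none fell and 7 did not pass at 8 against 1 kPa, with a median of 0.06. The 2 encode small SF3b subunits. SF3B5 stood at 35.4, 28.1, 33.7 and 33.5 CPM in the 1 kPa libraries, 42.1, 40.3, 41.5 and 42.1 in those at 8 kPa and 32.1, 34.4, 35.8 and 37.4 in those at 30 kPa. The 8 kPa libraries were within 40.3 to 42.1 CPM and above all others; the log2 fold change was 0.34 ± 0.0700 (adjusted p = 0.0112, edgeR). SF3B6, the subunit that sits at the branch site adenosine, stood at 80.4, 63.7, 81.6 and 90.5 CPM in the 1 kPa libraries, 107, 101, 107 and 97.6 in those at 8 kPa and 87.8, 79.2, 83.8 and 91.9 in those at 30 kPa. Again the 8 kPa libraries were the highest, with a log2 change of 0.38 ± 0.0852 (adjusted p = 0.0144, edgeR), a call lost without 8 kPa replicate 3.

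SF3B1, the large scaffold subunit that is mutated in some cancers, had a negative fold change and did not pass. It stood at 632, 702, 642 and 650 CPM in the 1 kPa libraries, 561, 600, 577 and 620 in those at 8 kPa and 626, 637, 629 and 614 in those at 30 kPa. The 8 kPa libraries were all below the 1 kPa libraries, and the log2 fold change was -0.16 ± 0.0563 (adjusted p = 0.0787, edgeR). SF3A2 stood at 49.2, 58.8, 50.8 and 54.3 CPM in the 1 kPa libraries, 44.3, 50.3, 44.1 and 55.2 in those at 8 kPa and 56.7, 52.2, 55.0 and 59.0 in those at 30 kPa. Its groups overlapped, and its log2 fold change at 8 against 1 kPa was -0.13 ± 0.0782 (adjusted p = 0.258, edgeR). The remaining 5 subunits ran from -0.04 (SF3A1) to 0.18 (SF3B3, adjusted p = 0.0680, edgeR), with SF3B4, SF3A3 and SF3B2 at 0.02, 0.06 and 0.09 between them. The ratio of SF3B6 to SF3B1 counts was 0.120 on the softest substrate, 0.175 on 8 kPa and 0.137 on 30 kPa (geometric means of within-library CPM ratios, not corrected for length), with all 8 kPa libraries above all others; this pair too was chosen after its values were seen.

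The U7 particle, which cuts the ends of histone mRNAs, replaces SmD1 and SmD2 with LSM10 and LSM11. LSM10 (chromosome 1, 36391238 to 36397892, minus strand) stood at 11.0, 10.3, 10.1 and 12.4 CPM in the 1 kPa libraries, 15.8, 14.5, 14.5 and 14.04 in those at 8 kPa and 11.3, 10.2, 12.0 and 13.2 in those at 30 kPa. The 8 kPa libraries were above all others, and the log2 fold change at 8 against 1 kPa was 0.42 ± 0.0937 (adjusted p = 0.0143, edgeR). LSM11 stood at 13.97, 11.6, 13.2 and 12.7 CPM in the 1 kPa libraries, 15.4, 11.4, 14.1 and 13.5 in those at 8 kPa and 14.7, 12.0, 14.3 and 13.9 in those at 30 kPa. Its groups overlapped, and its log2 fold change was 0.07 ± 0.101 (adjusted p = 0.665, edgeR). The difference between the pair was not tested.

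None of the 3 other LSm genes passed at 8 against 1 kPa, and their median was 0.09. LSM12 stood at 19.98, 18.02, 18.9 and 22.5 CPM in the 1 kPa libraries, 21.5, 20.3, 22.7 and 21.9 in those at 8 kPa and 18.5, 18.5, 19.4 and 19.3 in those at 30 kPa, and its 8 kPa libraries were above all 30 kPa libraries and overlapped those of 1 kPa. LSM14B, a protein of translational repression, stood at 60.4, 52.0, 57.7 and 61.6 CPM in the 1 kPa libraries, 59.0, 57.8, 57.8 and 57.8 in those at 8 kPa and 56.6, 52.9, 55.2 and 54.2 in those at 30 kPa, with its lowest value in 1 kPa replicate 2. LSM14A, which works with the DDX6 helicase in processing bodies, ranged from 96.9 to 122 CPM over the 12 libraries. Fold changes at 8 against 1 kPa were 0.12 in LSM12, 0.09 in LSM14A and 0.00 in LSM14B (adjusted p = 0.269, 0.304 and 0.970, edgeR).

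**Figure D3:**
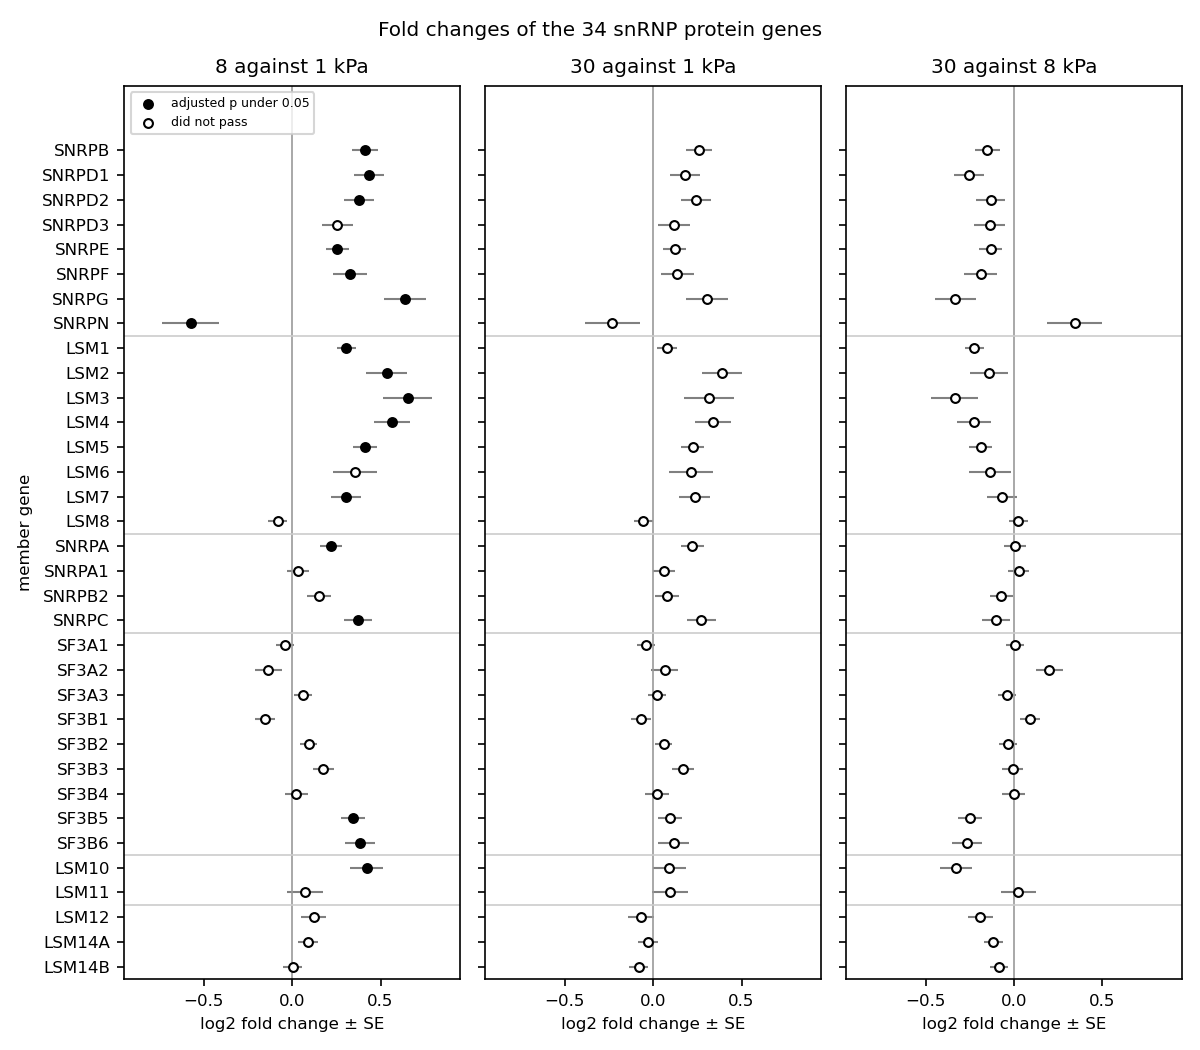
Log2 fold change (horizontal axis, with SE) of each of the 34 members in the 3 pairwise comparisons; filled points passed an adjusted p of 0.05 in edgeR and open points did not. At 8 against 1 kPa 17 filled points lie to the right and 1 (SNRPN) to the left, and there are none in the other panels.

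At 30 kPa most members lay between the other groups. The mean was highest at 8 kPa in 26 of 34 members, and in 23 the order was 1, 30, 8 kPa from low to high. The share of all tested genes with these orders was not counted. At 30 against 1 kPa 0 of 34 members passed in edgeR, against 2.43% of tested genes. An unadjusted p under 0.05 was found in 11 members, against 3393 of the 17960 tested genes. DESeq2 called 6 members, against 5.95% of tested genes, and limma-voom 0, against 2.34%. The members' median was 0.11, against 0.00 over all tested genes. All 1 kPa libraries were shallow and all 30 kPa libraries deep, so depth and stiffness cannot be told apart in this comparison. The highest fold changes were those of LSM2 (0.39 ± 0.114, adjusted p = 0.0847, edgeR), LSM4 (0.34) and LSM3 (0.32), and the lowest those of SNRPN (-0.23), LSM14B (-0.08) and LSM12 (-0.07). In 7 members, among them SNRPB, SNRPA, SNRPC, LSM2, LSM4 and LSM5, all 30 kPa libraries were above all 1 kPa libraries, against 5.33% of tested genes; the seventh was SF3B3. Without 1 kPa replicate 4, 2 members passed, both higher at 30 kPa, against 3.20% of the genes tested in that fit.

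At 30 against 8 kPa 0 of 34 members passed in edgeR, against 0% of tested genes. An unadjusted p under 0.05 was found in 12 members, against 3218 of the 17960 tested genes. DESeq2 called 3 members, all lower, against 2.39% of tested genes, and limma-voom 0, against 0%. The members' median was -0.13, against 0.00 over all tested genes. The lowest fold changes were those of LSM3 (-0.34 ± 0.135, adjusted p = 0.220, edgeR), SNRPG (-0.33) and LSM10 (-0.33), and the highest those of SNRPN (0.34), SF3A2 (0.20) and SF3B1 (0.09). In 12 members all 8 kPa libraries were above all 30 kPa libraries, against 6.5% of tested genes. Without 1 kPa replicate 2, which enters this comparison through the shared estimate of spread, 4 members passed, all lower at 30 kPa, against 1.02% of the genes tested in that fit. Without 8 kPa replicate 4, 1 passed in each direction, against 5.63%, so the members' share was near that of all genes.

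Set against the average log2 level of the softest and stiffest groups, 8 kPa was higher in 13 members and lower in 0, with a median of 0.19, against 7.08% of tested genes called and 4.42% called higher. The 13 were SNRPB, SNRPD1, SNRPD2, SNRPE and SNRPG of the Sm ring, LSM1 to LSM5, SF3B5, SF3B6 and LSM10. The contrast was largest in LSM3 (0.50 ± 0.117, adjusted p = 0.0311, edgeR) and SNRPG (0.49 ± 0.101, adjusted p = 0.0275), while SNRPN was at -0.46 (adjusted p = 0.0587). It shares its libraries with the pairwise comparisons. With the depth class in the fit, 10 members passed, all higher, against 7.06% of tested genes. No member passed when 8 kPa replicate 1, 8 kPa replicate 3, 30 kPa replicate 1 or 30 kPa replicate 2 was left out; of all tested genes 0 passed in the first 3 of these fits and 1 in the last. Without 8 kPa replicate 2 the count was 4, against 0.97% of tested genes, and without 30 kPa replicate 3 it was 7, against 1.44%.

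More of the members with short transcripts than of those with long ones passed the test. Of the 17 members with a principal transcript (GENCODE v29) below the members' median length, 14 rose at 8 against 1 kPa with a median of 0.34; of the 17 above it, 3 rose and 1 fell with a median of 0.09. LSM3, LSM5 and SNRPD1 were the long members that rose. Across the 34 members Pearson's r between log2 length and fold change was -0.37, and Spearman's rho was -0.42. Both are given as a description, since genes share libraries and are not replicates. Over all 17737 tested genes with a length, rho was 0.00365. With transcript length as an offset in the fit, 16 members were higher and 1 lower, against 13.3% of tested genes called. Per kilobase of that transcript, levels at 1 kPa ran from 1.93 CPM for SNRPN and 1.95 for LSM11 to 184 for SNRPD2, with SF3B6 at 103 and SF3B1 at 101.

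**Figure D4:**
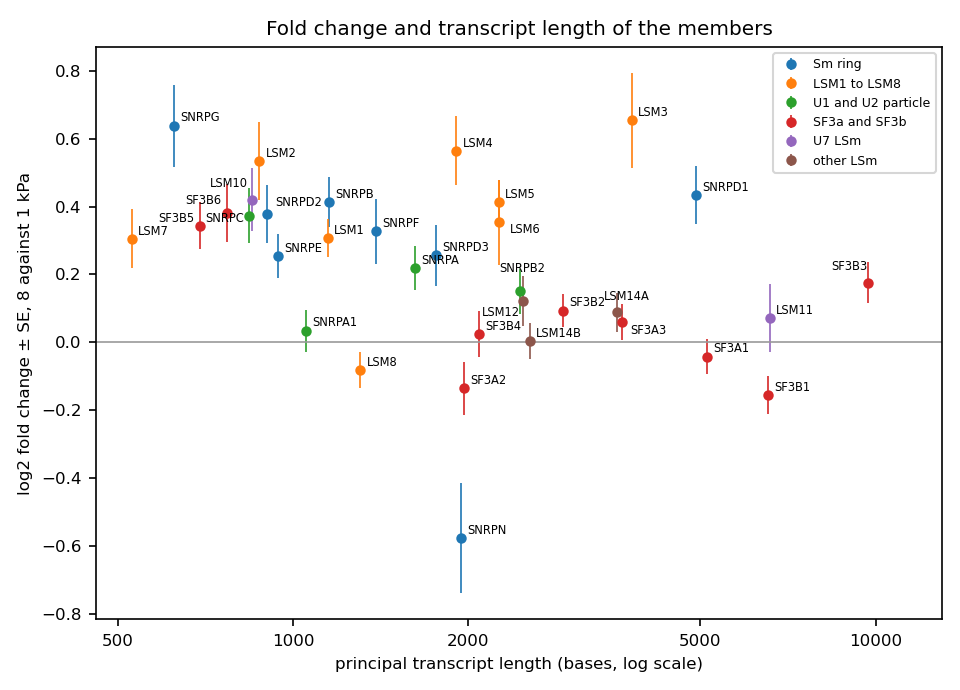
Log2 fold change at 8 against 1 kPa (vertical axis, with SE) of the 34 members against principal transcript length in bases (log scale), coloured by role. Of the 17 shorter members 14 rose and none fell, and of the 17 longer ones 3 rose and 1 fell.

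Other parts of the splicing machinery were counted in the same fit at 8 against 1 kPa. Of 16 tri-snRNP and U5 proteins, 6 rose, 1 fell and the median was 0.16. TXNL4A, a small U5 protein, went from 38.5 ± 3.42 to 51.5 ± 2.39 CPM and was at 44.7 ± 2.97 on the stiffest substrate (SD, n = 4), a log2 change of 0.42 ± 0.0697 (adjusted p = 0.00707, edgeR). PRPF31, a U4/U6 protein, and SNU13, which binds U4 RNA, rose by 0.25 and 0.33 (adjusted p = 0.0132 and 0.0143, edgeR). The 1 that fell was PRPF3. Of 18 genes of snRNP assembly and import, 4 rose and 1 fell with a median of 0.18. STRAP, a partner of the SMN complex, went from 138 ± 12.7 to 166 ± 2.75 CPM, a log2 change of 0.27 ± 0.0600 (adjusted p = 0.0145, edgeR). CLNS1A, the chaperone that holds Sm proteins before loading, and RIOK1, which competes with it for the PRMT5 complex, rose by 0.27 and 0.22 (adjusted p = 0.0159 and 0.0243, edgeR), while SMN1, also called higher, shares reads with the near-identical SMN2 and is uncertain. GEMIN8 fell.

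The remaining lists had medians nearer 0. Of 9 other U1 and U2 partners, PHF5A, an SF3b subunit outside the symbol patterns, rose by 0.31, the helicase DDX39B had a log2 change of -0.42 ± 0.0963 (adjusted p = 0.0284 and 0.0156, edgeR), and the median was -0.01. PUF60 had a fold change of 0.15 and did not pass (adjusted p = 0.0518, edgeR). Of 8 minor spliceosome proteins 2 rose, SNRNP25 and ZCRB1, and 2 fell, RNPC3 and ZRSR2, with a median of 0.10. Of 20 activation and catalysis proteins 2 rose, BUD31 and PRPF19, none fell, and the median was 0.04. Of 10 histone pre-mRNA processing genes 1 rose, the exonuclease ERI1, with a median of 0.08; ZNF473, a U7-associated protein, had a fold change of 0.23 (adjusted p = 0.0675, edgeR). Of 8 decay partners of the LSM1 ring none rose and the exonuclease XRN1 fell, from 114 ± 1.35 to 96.2 ± 2.06 CPM, a log2 change of -0.25 ± 0.0458 (adjusted p = 0.00861, edgeR), with a list median of 0.02. These counts stand beside 8.17% higher and 5.6% lower over all tested genes, and differences between lists were not tested.

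**Figure D5:**
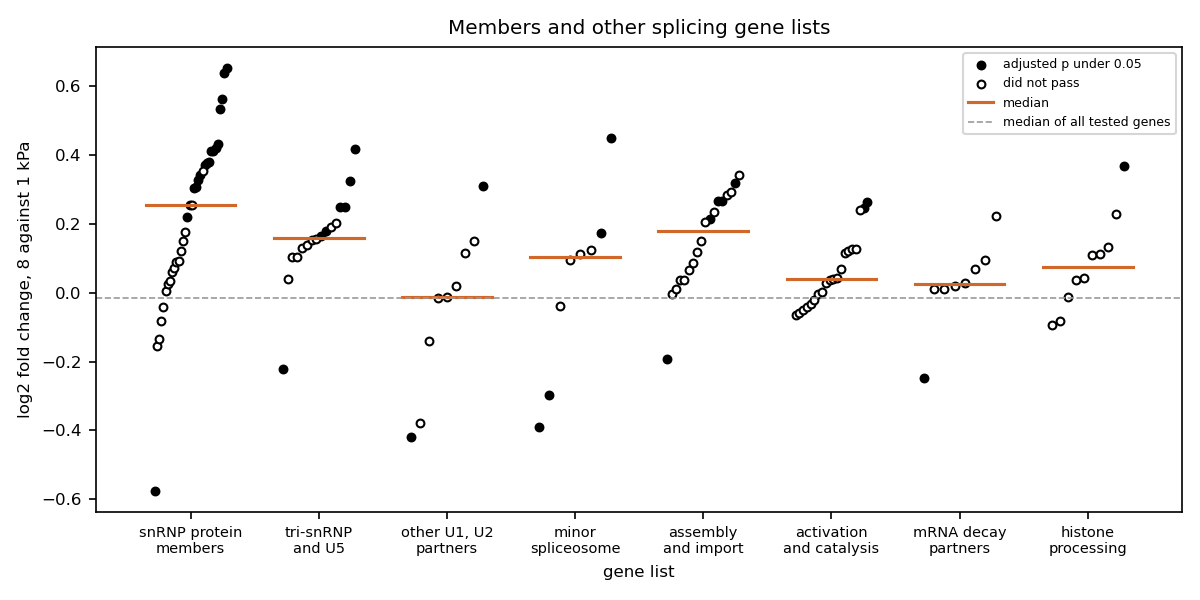
Log2 fold change at 8 against 1 kPa (vertical axis) of the 34 members and of the genes of 7 related lists (horizontal axis); filled points passed an adjusted p of 0.05 in edgeR, orange bars are medians and the dashed line is the median of all tested genes. The members' median is 0.25, followed by 0.18 for assembly and import and 0.16 for tri-snRNP and U5.

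Markers of the cell line were present: 12 of 13 neuroblastoma genes passed the filter and TH did not. Their summed level was 2494 to 3253 CPM at 1 kPa, 2894 to 3382 at 8 kPa and 2769 to 3184 at 30 kPa. At 8 against 1 kPa 4 of the 12 passed, all higher, with a median of 0.29, beside 8.17% of tested genes called higher. At 30 against 1 kPa 2 of the 12 passed, both higher, with a median of 0.28, beside 2.43% of tested genes called. For 8 kPa against the mean of 1 and 30 kPa 0 of the 12 passed in edgeR, beside 7.08% of tested genes called. Of the 12, 11 had a positive value in this contrast, and the median was 0.17. An unadjusted p under 0.05 was found in 2 of them, against 4938 of the 17960 tested genes. Of 11 markers of immune, epithelial, endothelial and red blood cells, EPCAM and PECAM1 passed the filter, KRT5 was at 0 in every library, and the sum was 5.07 to 11.3 CPM at 1 kPa, 3.85 to 9.25 at 8 kPa and 3.21 to 4.17 at 30 kPa.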

How the data were processed

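RNA was sequenced from 12 libraries of SK-N-SH cells, 4 at each of 1, 8 and 30 kPa. Reads were aligned with HISAT2 to GRCh38, per the submitters' processing notes; the counting tool, annotation release and strand setting are not given in the sources used here. The authors deposited a table of raw counts with 1 row per Ensembl gene and 1 column per library, of which 60463 of 60664 matched the gene name table. Gene types, positions and principal transcript lengths came from GENCODE v29 (GRCh38), and promoter windows from RefSeq (GRCh38.p14).

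Counts were fitted in R 4.3.3 with edgeR 4.0.16: filterByExpr, TMM scaling, all 12 libraries with stiffness as the only term, and the quasi-likelihood F-test, with Benjamini-Hochberg adjustment over 17960 genes and a threshold of 0.05. An SE is the size of the log2 fold change divided by the root of F. CPM are counts scaled to the TMM-adjusted library total. The step was tested on simulated data. Alternatives used DESeq2 1.42.0, limma-voom (limma 3.58.1), other scalings and filters (the stricter one asked for 1 CPM in 10 libraries), a replicate block, a depth class (5 shallow against 7 deep libraries), a transcript length offset, the compared groups alone, and each library left out in turn.

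The members and the related lists were chosen with earlier results of these data known. Values in every library are given for the 10 members with the smallest p at 8 against 1 kPa, the 3 highest and 3 lowest fold changes of each comparison, and SNRPN, SNRPB, SF3B1, LSM10 and LSM11; LSM8 and SF3B6 were added after their values were seen. Up to 3 genes of each related list with the smallest p were named, and further genes of these lists are named where a small count called for it. SNRNP70 is named beside the other U1 genes. Some marker genes of these lists are not reported here by name.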

Additional observations from a re-analysis of the deposited data

Results flagged for a closer look

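The 34 members in 3 groups of 4 libraries gave 102 groups that were checked for a library standing apart from the others of its group, by Dixon's ratio. Chance gives about 1 in 20 such groups, and 2 were found. LSM14B was at 59.0 CPM in 8 kPa replicate 1, against 57.8 in each of the other 8 kPa libraries, so the gap is small in size. LSM8 was at 82.2 CPM in 30 kPa replicate 1, against 76.1 to 76.8 in the other 30 kPa libraries. Neither gene was called in a comparison. No member was found in this way in 1 kPa replicate 2.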

How the results depend on the processing

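At 8 against 1 kPa the count of called members, 18 in all, was 14 to 22 under most other settings, against 6.53% to 18.2% of all genes. These settings were median-ratio scaling, library size alone, both filters, DESeq2, limma-voom, the length offset, the replicate block and the compared groups alone. With the depth class in the fit the count was 0, but there the comparison rests on 1 library at 8 kPa. Leaving out 1 library gave 10 to 21, against 2.93% to 19.5%. At 30 against 1 kPa, 0 became 4 without the filter on low counts (2.43%), 6 with DESeq2 (5.95% of all genes) and 3 with the replicate block (5.42%), and 0 to 2 with 1 library left out. At 30 against 8 kPa, 0 became 3 with DESeq2 (2.39%) and 0 to 4 with 1 library left out. For 8 kPa against the mean of 1 and 30 kPa, the count of 13 was 10 to 17 under the other settings (4.46% to 12.8% of all genes) and 0 to 18 with 1 library left out (0% to 15.7%); the compared groups alone give no fit of this contrast. The members' median kept its sign in every setting: with 1 library left out it was 0.20 to 0.29 at 8 against 1 kPa, 0.06 to 0.15 at 30 against 1 kPa, -0.14 to -0.08 at 30 against 8 kPa and 0.15 to 0.22 for the departure of 8 kPa. Fold changes of LSM14B, SF3A1, SF3B4 and SNRPA1 at 8 against 1 kPa changed sign in 8, 1, 2 and 4 settings, respectively. None of these genes was called. The cause of these changes of sign was not tested. The labels number the replicates and do not say whether equal numbers pair the samples. Deviations of same-numbered libraries correlated at -0.13 to 0.37, and pairing was not tested. With the replicate block, 20 members were higher and 2 lower at 8 against 1 kPa, and 16 were higher for the departure of 8 kPa, while the number of all genes called went from 2472 to 3273 and from 1272 to 2096. Depth limits the lowest member most: SNRPN rests on the fewest counts of any member, 767 over 12 libraries.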
